A study of Saccharomyces cerevisiae with 58 samples.

Results

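The recovery of a B-type cyclin mutant of budding yeast from elutriation into growth was described from 8 of the 58 arrays of the series, 30 of which came from the mutant. The arrays were chosen by sampling time alone: 4 early arrays at 30, 38, 46 and 54 min were compared with 4 late arrays at 78, 86, 94 and 102 min, for all 5449 measured genes. The mutant is strain BF264-15DU, mating type a. By the strain labels its 6 B-type cyclin genes are disrupted by marker genes. These are named as URA3 in clb1, LEU2 in clb2, TRP1 in clb3, HIS2 in clb4, ARG4 in clb5 and APE1 in clb6. The mutant also holds a LEU2-marked copy of CLB1 under the GAL1 promoter. The wild type of the study, used for comparison on 8 arrays at the same times, is the same strain background and mating type with the bar1 allele. Cultures of both strains were early G1 cells sorted by size through elutriation and grown at 30 °C in rich dextrose medium with 1 M sorbitol. The study followed them to ask which part of the cell cycle transcription programme persists without B-type cyclins. Each strain had 2 cultures, sampled every 16 min and offset by 8 min. Mutant culture 2 gave the arrays at 30, 46, 78 and 94 min and mutant culture 1 those at 38, 54, 86 and 102 min, so culture and exact time go together within a window.

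Yeast cells that lack nutrients or meet stress switch on a common set of protective genes, among them catalase, trehalose enzymes and chaperones, through the factors Msn2 and Msn4, and they hold down the genes that build ribosomes. When growth resumes the relation turns round, and once a G1 cell is large enough the G1 cyclin Cln3 frees the factors SBF and MBF, which switch on the genes of budding and DNA replication at Start. B-type cyclins act after Start, in S phase and mitosis, and the genes of the CLB2 cluster, which serve mitosis, are normally switched on with their help.

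Levels below are log2(intensity + 1) of probe sets, and differences are late minus early on that scale. Values of single arrays are given in the order of the times above. The replicate was the culture (n = 2 per strain), each gene had 1 mean per culture and window, and limma was fitted to the 8 means of both strains. Changes are given with the standard error of that fit, and a gene is said to have risen or fallen at a Benjamini-Hochberg adjusted p under 0.05. Sources do not say more of the replicates than that they are biological. The RNA came from whole cultures, in which fewer cells of a kind and less RNA per cell cannot be told apart. The level that 95% of 1746 background probe sets stay under, 8.98, is used as the background level. These are annotated probe sets that matched no RefSeq gene. Where a gene lay under it on all arrays of a window, the change is given as a bound against that level.

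The labels were checked on the targeted genes first. The mitotic cyclin genes CLB2, CLB3 and CLB4 stayed under background on all 8 mutant arrays, with highest values of 8.78, 7.94 and 8.62. CLB1 lay between 11.62 and 11.97 and did not pass the test of change (0.10 ± 0.16, adjusted p = 0.69). On the wild-type arrays of the early window CLB1 lay between 7.93 and 8.48. GAL1 itself read 12.38, 12.07, 11.87 and 11.79 early and 11.66, 11.67, 11.88 and 11.57 late. CLB5 stayed between 10.36 and 11.12 (0.09 ± 0.20, adjusted p = 0.78), and CLB6, the other S-phase cyclin gene, rose by 1.03 ± 0.14 (adjusted p = 0.0025). Where the probes lie in these genes was not analysed here, and a probe outside a disrupted stretch does not check the disruption. Among the genes named as markers, APE1, which encodes a vacuolar aminopeptidase, fell by 1.78 ± 0.27 and HIS2 by 0.52 ± 0.11 (adjusted p = 0.0038 and 0.013). Whether the name APE1 in the label is right was not checked. URA3 (-0.33 ± 0.19), LEU2 (0.00 ± 0.24) and ARG4 (-0.16 ± 0.13) did not pass the test. The a-factor genes MFA1 and MFA2 and the genes STE2 and STE6 of a cells lay between 12.03 and 14.22 on the 8 arrays. They are the brighter part of a list of 8 a-specific genes, whose mean lay between 11.38 and 11.78. In this list 1 gene lay under background in both windows. Of the genes of the opposite mating type, MF(ALPHA)1 was above 8.98 on 1 array and the receptor gene STE3 on 0, while SAG1 lay between 10.44 and 11.24 and MF(ALPHA)2 between 8.76 and 9.96. Of 18 meiotic genes 12 lay under background in both windows, and the highest value of the regulator gene IME1 was 11.59 at 46 min.

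The mean intensity of the mutant arrays ranged from 2067 to 2108, and the median change over all genes was -0.01. The 4 late arrays resembled each other more closely than the early ones. Over the 5449 genes, which are not independent replicates, they correlated at 0.973 to 0.990, against 0.843 to 0.959 among the early arrays and 0.762 to 0.953 between the windows. The early window was therefore not a single state, and most of what follows depends on how its first arrays, at 30 and 38 min, differ from those at 46 and 54 min. The number of cultures limits the precision of every change. A fit without 1 culture leaves 1 culture in that strain and takes its spread from the other strain alone. Counts from such fits, given below, show how far calls rest on a culture and its sampling times, and are no test of their own.

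From the early to the late window 554 of the 5449 genes rose (10.2%) and 781 fell (14.3%) in the mutant. Of these, 229 rose (4.2%) and 266 fell (4.88%) by at least 1 on the log2 scale. The 4 late arrays lay above all early arrays for 695 genes (12.8%) and below all of them for 892 genes (16.4%). With the arrays at 46 and 54 min alone as the early window, 293 genes rose and 185 fell. All but 8 of those that rose and all but 14 of those that fell were also called with the full window. Without mutant culture 2 the numbers were 264 and 267, and without mutant culture 1 they were 749 and 764. With the mutant cultures alone in the fit they were 347 and 455. At an unadjusted p under 0.05, 38.9% of the genes passed in either direction.

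Single steps from one array of each culture to the next showed when the genes changed. They were added after the early arrays were seen to differ. In the first step, from 30 and 38 min to 46 and 54 min, 601 genes rose (11%) and 783 fell (14.4%). In the second, to 62 and 70 min, 78 rose (1.43%) and 70 fell (1.28%). In the third, to 78 and 86 min, 64 rose (1.17%) and 6 fell (0.11%). In the last, to 94 and 102 min, 8 rose (0.147%) and 2 fell (0.0367%). Without mutant culture 2 the first step had 143 rises and 223 falls, and without either mutant culture the last step had 0 calls in each direction by limma (in the full fit 253 rises and 70 falls had an unadjusted p under 0.05). With culture as a block, which pairs the arrays of a culture, the first step had 905 and 1056 calls. The 8 genes that rose in the last step included NRM1, KIP1, BUD4, SRS2 and WSC2, chosen for naming after their values were seen.

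**Figure D1:**
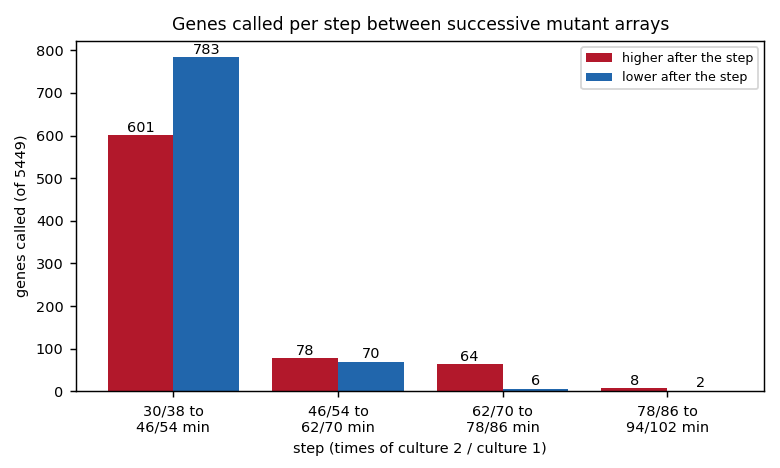
Number of genes (of 5449) that rose (red bars) or fell (blue bars) in each step between successive mutant arrays, by limma at an adjusted p under 0.05. Each step sets 1 array per culture against the next one 16 min later; the first step has 601 rises and 783 falls, the last 8 and 2.

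The protective genes of the stress response were among the largest falls. Of the 30 genes of the general stress list 27 fell and 0 rose, with a median of -2.85. CTT1, the cytosolic catalase, read 14.52, 14.004, 12.55 and 10.08 on the early arrays and 9.40, 8.74, 9.63 and 8.83 on the late ones. The early values ran down with time and the late ones lay close to background, without overlap between the windows. The change was -3.64 ± 0.46 (adjusted p = 0.0021). HSP12, a small heat shock protein gene, read 14.98, 14.89, 14.84 and 14.39 early and 13.27, 11.12, 12.75 and 10.61 late, where the culture 1 arrays were below those of culture 2. It fell by 2.84 ± 0.58 (adjusted p = 0.013), by 3.78 in culture 1 and 1.90 in culture 2. Several members work on sugar phosphates, a side of the stress response that supplies NADPH. TKL2, a transketolase, fell by 3.72 ± 0.48, SOL4, a 6-phosphogluconolactonase, fell by 3.75 ± 0.58, and NQM1, a transaldolase relative, fell by 4.60 ± 0.28 (adjusted p = 0.0022, 0.0041 and 9.7e-05). ALD3, an aldehyde dehydrogenase, fell by 3.76 ± 0.45 (adjusted p = 0.0017). The 3 members that did not pass were TMA10 (-0.995 ± 0.45), USV1 (-0.95 ± 0.37) and MSN4 (-0.01 ± 0.18), the gene of one of the stress factors themselves.

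The stress genes fell mainly in the first and the second step, with medians of -2.03 and -1.18, against -0.15 in the third. By limma 23 of the 30 fell in the first step, 4 in the second and 1 in the third. At an unadjusted p under 0.05 it was 27, 16 and 3, and with culture as a block 27, 12 and 1. The list mean went from 13.26 at 30 min and 12.53 at 38 min to 10.20 at 54 min, and it lay between 9.07 and 9.52 on the late arrays. SIP18, a hydrophilin gene of desiccation tolerance, read 13.39, 12.29, 11.15 and 8.47 early and 8.04, 8.28, 8.17 and 7.96 late. It was under background by 54 min and on every late array, so its fall was at least 5.09-fold (adjusted p = 0.0048). GRE1, a related hydrophilin gene, read 13.90, 13.72, 12.78 and 10.09 early and 8.78, 8.81, 8.72 and 8.64 late, a fall of at least 12.5-fold (adjusted p = 0.0021). Later changes were seen for YGP1, a secreted glycoprotein of the cell wall, which read 14.66, 14.59, 14.48 and 14.25 early and 12.29, 11.06, 11.21 and 10.12 late. It was nearly level up to 54 min, and its only step that passed was the third, at -2.0001 (adjusted p = 0.036). With 46 and 54 min as the early window 7 of the 30 stress genes fell, with a median of -1.66, and with the mutant cultures alone in the fit 20 fell.

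**Figure D2:**
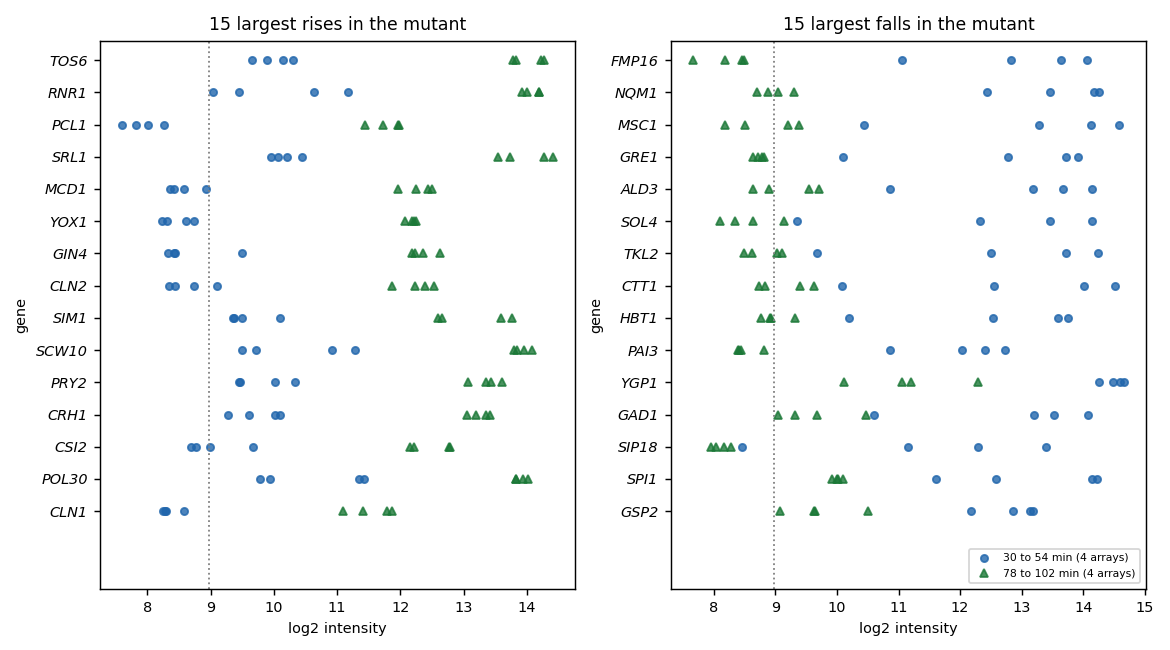
Log2 intensity of the 15 genes with the largest rises (left) and falls (right) in the mutant that passed the test without overlap between windows, with 1 point per array: circles for the 4 early arrays, triangles for the 4 late ones. The dotted line is the background level of 8.98; the early circles of the falling genes spread widely while most triangles lie near background, those of YGP1 and SPI1 higher.

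The remaining large falls included genes of several kinds. FMP16, which encodes a mitochondrial protein, read 14.05, 13.64, 12.82 and 11.05 early and 8.46, 7.66, 8.49 and 8.19 late. All late values lay under background, and the fall was at least 15.1-fold (adjusted p = 0.0002). PAI3, the inhibitor of the vacuolar proteinase A, fell at least 8.17-fold (adjusted p = 0.00014). GAD1, glutamate decarboxylase, fell by 3.22 ± 0.46, by 2.30 in culture 1 and 4.13 in culture 2. SPI1, a cell wall protein anchored by glycolipid, fell by 3.13 ± 0.18 and GSP2, a Ran GTPase, fell by 3.12 ± 0.23. MSC1, which is in the general stress list, fell by 4.29 ± 0.52 and HBT1 by 3.53 ± 0.39. The adjusted p of these 5 genes lay between 7.5e-05 and 0.0033.

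Of 20 genes of reserve carbohydrates 9 fell and 0 rose (median -0.69), and 14 of the 20 fell in the first step (median -1.53). Between the windows 5 fell without mutant culture 2 (median -0.37), 13 without culture 1 (median -1.15) and 4 with the mutant cultures alone in the fit. TPS1, trehalose phosphate synthase, read 14.33, 13.71, 12.86 and 11.24 early and 11.25, 10.92, 11.56 and 11.17 late. Its last early value lay within the range of the late ones, and its change was -1.81 ± 0.35 (adjusted p = 0.011). The trehalose phosphatase gene TPS2 fell by 1.84 ± 0.39, the neutral trehalase gene NTH1 by 2.21 ± 0.33 and GPH1, glycogen phosphorylase, by 1.87 ± 0.31 (adjusted p = 0.014, 0.0037 and 0.0059). Genes of synthesis and of breakdown thus fell side by side. TSL1, a regulatory subunit of the synthase, had a change of -2.24 ± 0.68 that did not pass (adjusted p = 0.052). With 46 and 54 min as the early window 0 of the 20 passed by limma, with a median of -0.09.

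Among 22 chaperone genes 6 fell and 0 rose (median -0.22). HSP104, which pulls apart protein aggregates, read 14.07, 13.16, 11.95 and 10.52 early and 10.70, 10.46, 11.27 and 11.37 late. The values at 54 min and on the 4 late arrays overlapped, with a change of -1.48 ± 0.34 (adjusted p = 0.02). SSE2, an Hsp110 chaperone, fell by 2.12 ± 0.36, HSP78 of mitochondria by 1.51 ± 0.32, the Hsp70 gene SSA1 by 1.11 ± 0.17 and the Hsp90 gene HSP82 by 1.04 ± 0.29 (adjusted p between 0.0039 and 0.040). Without mutant culture 2 the list had 2 falls (median -0.02), without culture 1 it had 8 (median -0.58), and with 46 and 54 min as the early window 0 passed by limma (median -0.03).

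Proteasome genes fell as a group, by less than the stress genes. Of 32 proteasome genes 30 fell and 0 rose (median -0.78), and 31 of the 32 fell in the first step (median -0.78). RPT1, an ATPase of the regulatory particle, read 13.44, 13.33, 12.76 and 12.39 early and 11.84, 11.96, 11.98 and 12.25 late. All late arrays lay below all early ones, and the change was -0.97 ± 0.15 (adjusted p = 0.0038). RPT2, another of these ATPases, fell by 1.03 ± 0.16 and the lid subunit gene RPN12 by 0.91 ± 0.17. The 2 that did not pass were RPN11, the deubiquitinase of the lid (-0.55 ± 0.21), and RPN4, the transcription factor of proteasome genes (-0.30 ± 0.21, adjusted p = 0.34). Without mutant culture 2 only 1 of the 32 passed (median -0.58), and with 46 and 54 min as the early window 0 did by limma (median -0.40). Of 26 autophagy genes 9 fell and 0 rose (median -0.40), with 5 falls without mutant culture 2 and 1 with that early window. ATG8, which coats the growing membrane, fell by 1.95 ± 0.32, and ATG19, a cargo receptor of the vacuole pathway, by 1.99 ± 0.26 (adjusted p = 0.0056 and 0.0023). Vacuolar hydrolase genes fell in 6 of 9 members (median -0.82). PEP4, the proteinase that activates the others, read 14.31, 14.27, 14.07 and 13.73 early and 12.64, 12.01, 12.17 and 11.83 late, without overlap, and fell by 1.93 ± 0.17 (adjusted p = 0.00046). With that early window 2 of the 9 fell. The carboxypeptidase gene PRC1 fell by 1.47 ± 0.12 and the alpha-mannosidase gene AMS1 at least 2.5-fold.

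**Figure D3:**
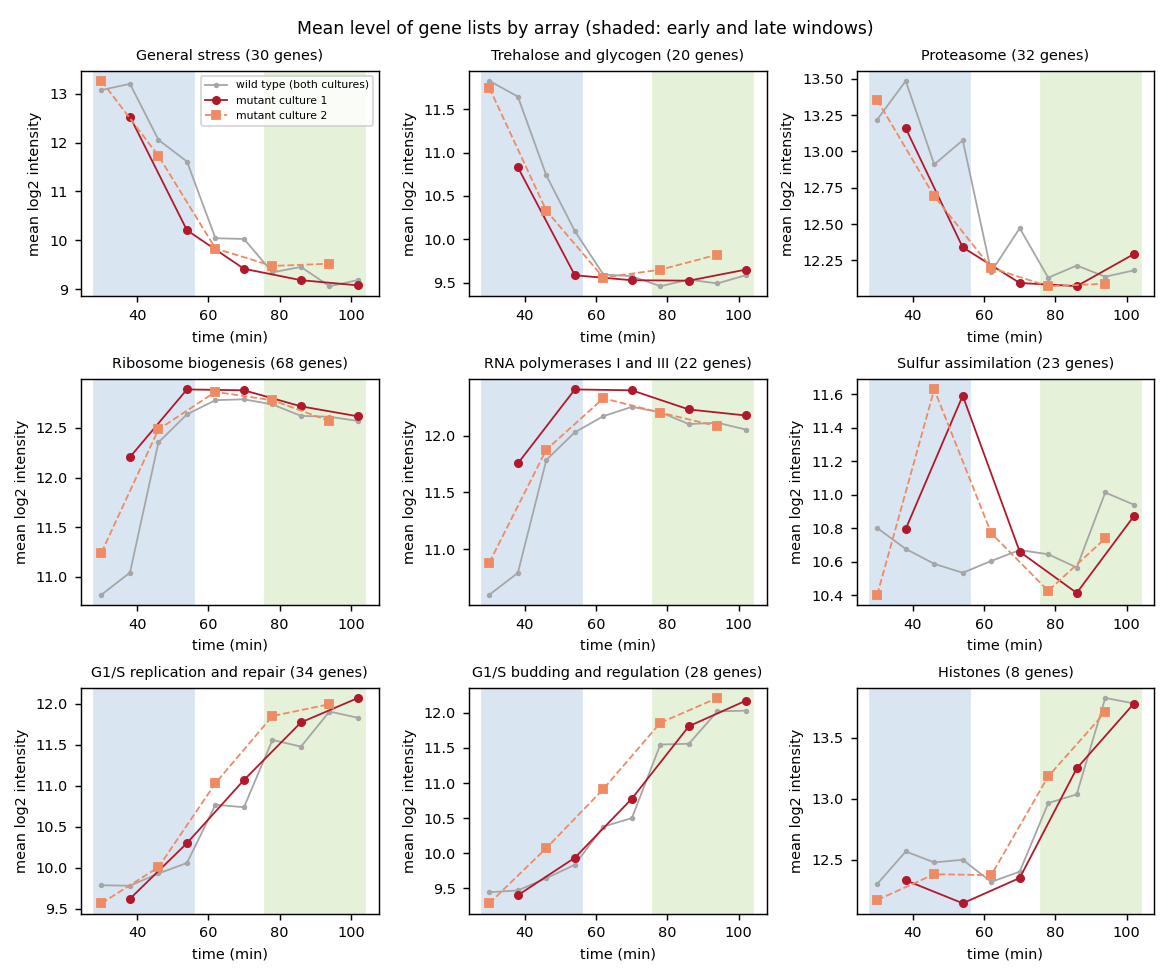
Mean log2 intensity of 9 gene lists on each array against time in min, for mutant culture 1 (dark circles), mutant culture 2 (light squares) and the wild type (grey, both cultures joined), with the early and late windows shaded. Stress, reserve carbohydrate and proteasome means come down within the early window, ribosome biogenesis means rise there from 11.24 to 12.89, and G1/S and histone means rise later.

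The genes that build ribosomes rose within the early window, so the comparison of windows showed little of it. Of 68 ribosome biogenesis genes 61 rose and 0 fell in the first step, with a median of 0.98, and 0 passed in the 3 later steps by limma (1 rise in the second step at an unadjusted p under 0.05). Between the windows 3 rose and 0 fell, with a median of 0.42. SDA1, needed to export the large subunit, read 10.04, 11.32, 12.13 and 12.58 early and 12.61, 12.42, 12.31 and 12.29 late. Its values climbed through the early window and its value at 54 min was above 3 of the 4 late ones. The change between windows was 0.89 ± 0.26 (adjusted p = 0.043) and the first step was 1.68 ± 0.30 (adjusted p = 0.003). KRR1 and RRP5, factors of the small subunit and of rRNA cleavage, rose by 1.04 ± 0.21 and 0.72 ± 0.20 between the windows (adjusted p = 0.013 and 0.042). NOP7, a factor of the large subunit, rose by 1.57 ± 0.36 in the first step (adjusted p = 0.0096). The 2 cultures differed in this list. Without mutant culture 1 the count between windows was 42 of 68 with a median of 0.77, and without mutant culture 2 it was 0 by limma with a median of 0.11.

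Other parts of the growth machinery followed the same course or stayed level. Of 22 genes of RNA polymerases I and III 17 rose in the first step (median 0.81) and 0 passed between the windows by limma (5 rises at an unadjusted p under 0.05, median 0.42). Without mutant culture 1 it was 10 of 22 (median 0.70), and without culture 2 the median was 0.10. RPA190, the largest subunit of polymerase I, rose by 1.04 ± 0.29 in the first step and RPC34, a subunit of polymerase III, by 1.41 ± 0.27 (adjusted p = 0.019 and 0.0039). The 18 ribosomal protein genes with a single copy had 0 calls between windows or in the 4 steps by limma, and 0 between the windows also at an unadjusted p under 0.05, and their list mean lay between 14.55 and 14.67 on all mutant arrays to 102 min. Signals near the top of the scale can hide a rise, which was not tested. Translation factors had 4 rises of 27 in the first step (median 0.28) and tRNA synthetases 6 of 18 (median 0.29), and neither list had a call between the windows by limma. At an unadjusted p under 0.05 they had 4 and 5 rises between the windows, where 926 of all genes (17%) rose.

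Nucleotide genes moved in both directions. Of 23 genes of purine and pyrimidine synthesis 5 rose and 2 fell (median 0.27), with 0 calls without mutant culture 2 by limma and 10 rises and 2 falls without culture 1. The IMP dehydrogenase genes IMD2, IMD3 and IMD4, which lead to guanine nucleotides, rose by 0.86, 0.52 and 0.81, and the pyrimidine genes URA1 and URA6 by 0.83 and 0.64. ADE2 and ADE16 of the common purine pathway fell by 0.78 and 0.80 (all 7 at an adjusted p between 0.0063 and 0.033). The probe set of IMD2 shares probes with similar transcripts, so its value is uncertain. 2 genes of purine salvage outside the list, named after their values were seen, rose early. HPT1, a phosphoribosyltransferase, read 9.22, 11.06, 12.35 and 13.14 early and 13.37, 13.37, 13.29 and 13.34 late, and AAH1, adenine deaminase, read 9.77, 12.04, 12.73 and 13.44 early and 13.42, 13.54, 13.38 and 13.43 late. HPT1 rose by 1.90 ± 0.40 and AAH1 by 1.45 ± 0.41, with overlap between the windows only for AAH1 (adjusted p = 0.013 and 0.041).

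Among 41 amino acid synthesis genes 14 rose and 1, SER33, fell (median 0.43), and 15 rose in the first step. LYS4, homoaconitase of the lysine pathway, read 10.20, 11.22, 11.48 and 12.46 early and 12.89, 12.92, 12.82 and 12.71 late. The late arrays lay above all early ones and the change was 1.49 ± 0.30 (adjusted p = 0.012). LYS2, of the same pathway, rose by 1.09 ± 0.21 and ARG1, argininosuccinate synthetase, by 1.43 ± 0.37. Without mutant culture 2 only 1 of the 41 passed.

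Sulfur genes were high at 46 and 54 min and lower before and after, in both mutant cultures. Of 23 genes of sulfur assimilation 16 rose in the first step and 10 fell in the second, and between the windows 12 fell and 0 rose (median -0.48). Over all genes 18 rose in the first step and fell in the second (0.33%), and 10 of these are in the list. With culture as a block 22 genes rose and then fell, and the 18 were among them. A fall and then a rise passed for 0 genes by limma. MET3, ATP sulfurylase at the entry of the pathway, read 9.81, 9.71, 11.30 and 11.41 early and 9.73, 9.42, 9.64 and 9.70 late. The arrays at 46 and 54 min, from different cultures, stood above all others by more than 1. The change between the windows was -0.93 ± 0.11 (adjusted p = 0.0015), the first step was 1.59 and the second -1.496 (adjusted p = 0.00011 and 0.00012).

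Several of the 18 genes are enzymes of the pathway. MET14, APS kinase, rose by 1.85 and then fell by 2.06, MET16, which reduces PAPS, rose by 0.45 and fell by 0.71, and MET5 and MET10, the subunits of sulfite reductase, rose by 1.07 and 1.32 and fell by 1.23 and 1.46. MET2, which activates homoserine, rose by 1.5004 and fell at least 2.97-fold. STR3, cystathionine beta-lyase, read 8.27, 9.25, 11.28 and 10.78 early and 8.18, 8.22, 8.58 and 9.11 late, with a clear signal only at 46 and 54 min. MET32, a transcription factor of the pathway, was under background before and after, and its rise and its fall were each at least 1.68-fold. MET1, an enzyme of the siroheme cofactor, rose by 0.71 and fell by 1.11.

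The 18 genes, chosen for this course, include some outside the list. MMP1 and MHT1, the permease and the enzyme for S-methylmethionine, rose by 2.74 and 2.06 and fell by 2.39 and 2.30. SAM3, a permease for S-adenosylmethionine, rose by 1.57 and fell by 2.38. The methionine permease gene MUP1, which is in the list, rose by 1.06 and fell by 1.89. MXR1, methionine sulfoxide reductase, read 10.45, 11.02, 12.98 and 13.24 early and 9.53, 9.81, 11.12 and 11.74 late. It peaked at 46 and 54 min, was lowest at 78 and 86 min and was up again on the last 2 arrays, where it rose by 1.76 in the fourth step. The remaining genes of the 18 were OPT1, a glutathione transporter, DUG2 and DUG3, which cleave glutathione, and SEO1, a permease whose means in both steps lay under background. The adjusted p was between 8.8e-05 and 0.025 in the first step for these genes and between 1.9e-05 and 0.010 in the second. MET17, the enzyme that takes up sulfide, came down later. It read 10.47, 11.29, 13.87 and 13.88 early, 13.34 and 12.65 at 62 and 70 min and 11.16, 10.13, 11.70 and 12.11 late, and its fall was in the third step (-2.35, adjusted p = 0.0018). The methionine synthase gene MET6 also fell in the third step (-1.65, adjusted p = 0.038).

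**Figure D4:**
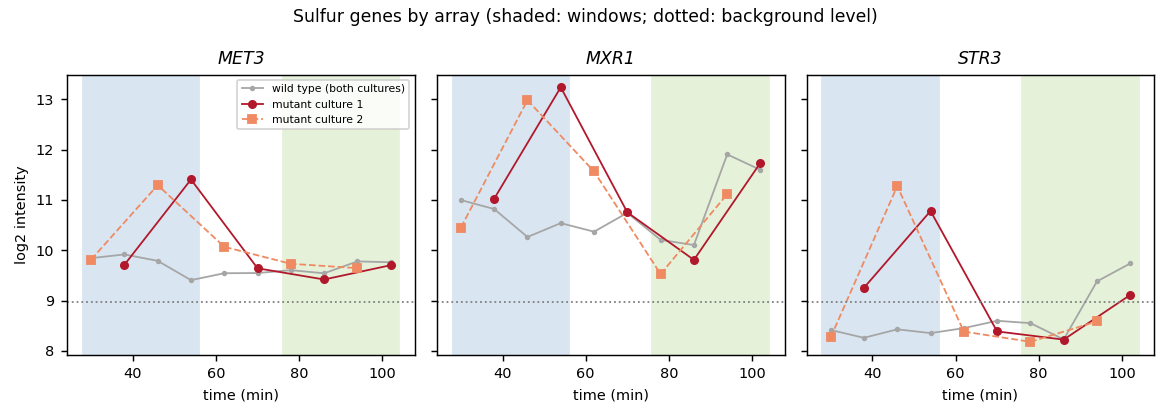
Log2 intensity of MET3, MXR1 and STR3 on each array against time in min, for mutant culture 1 (dark circles), mutant culture 2 (light squares) and the wild type (grey); windows are shaded and the dotted line is the background level of 8.98. In both mutant cultures the highest early value is at 46 or 54 min, with MET3 at 11.30 and 11.41, while wild-type MET3 stays between 9.41 and 9.92.

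Other nutrient lists changed in few members. In the phosphate regulon 2 of 15 rose and 1 fell, and 8 rose in the first step. There were 0 rises by limma without mutant culture 2, and also with 46 and 54 min as the early window. PHO11, a secreted acid phosphatase, read 11.54, 11.15, 13.60 and 13.35 early and 13.997, 13.41, 13.86 and 13.22 late, and its probe set shares probes with similar transcripts. PHM6 rose by 1.18 ± 0.24 and the phosphatase gene PHM8 fell by 1.75 ± 0.30. In the iron regulon 4 of 22 fell and 1 rose (median -0.54), and for 12 of the 22 all late arrays lay below all early ones. This was 1 fall and 0 rises without mutant culture 2, and the same numbers with 46 and 54 min as the early window. SIT1, a siderophore transporter, read 13.48, 13.34, 13.38 and 12.99 early and 11.95, 12.37, 11.01 and 11.81 late and fell by 1.51 ± 0.33. ISU2, a scaffold of iron-sulfur clusters, fell by 1.01 ± 0.13, the ferroxidase gene FET3 by 0.59 ± 0.18 and MRS4 by 0.46 ± 0.13, and FIT1 rose by 0.50 ± 0.13. The largest adjusted p of these 5 was 0.049. In ergosterol synthesis 1 of 25 rose, ERG4, and 2 fell, ERG9 and ERG20, while 10 of the 25 had all late arrays below all early ones.

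Of 21 glycolytic and fermentative genes 4 fell (19%) and 1 rose (4.76%), shares not far from the 14.3% and 10.2% of all genes. GLK1, glucokinase, read 14.53, 14.16, 13.22 and 11.02 early and 11.13, 10.99, 11.94 and 10.98 late, and fell by 1.97 ± 0.40. HXK2, the main hexokinase of growth on glucose, read 13.53, 13.34, 13.18 and 13.57 early and 14.05, 14.12, 14.21 and 14.27 late, and rose by 0.75 ± 0.10. The 2 genes, which act at the same reaction, thus moved in opposite directions (adjusted p = 0.012 and 0.0026). ENO1, an enolase, fell by 0.97 ± 0.15, GPM2 at least 1.37-fold and PYK2, a pyruvate kinase, by 0.57 ± 0.16. Of 18 hexose transporter and sensor genes 2 fell. HXT5, a transporter of slow growth, fell by 2.36 ± 0.30 and the sensor gene RGT2 fell by 0.55 ± 0.15. HXT2 had the largest positive value of that list and did not pass (1.98 ± 0.66, adjusted p = 0.069).

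Of 20 gluconeogenic and glyoxylate genes 4 fell (20%, against 14.3% of all genes), among them the regulator gene ADR1 by 0.90 ± 0.22 and IDP2 by 0.98 ± 0.14, and 1 rose, YAT1, a carnitine acetyltransferase, by at least 2.02-fold. The list had 0 falls by limma without mutant culture 2 and 7 without culture 1. Of 14 genes of peroxisomal oxidation MDH3 fell by 0.93 ± 0.12 and PEX11, which divides peroxisomes, rose by 1.74 ± 0.23. The tricarboxylic acid cycle had 2 falls of 13, LSC1 and LSC2, both subunits of succinyl-CoA ligase, at -0.60 ± 0.10 and -0.85 ± 0.19. Respiratory chain genes had 1 fall of 35, NDI1, and mitochondrial ribosome genes 1 of 53, MRP49, with medians of 0.06 and -0.05. In the galactose regulon 1 of 8 fell, GCY1, by 1.45 ± 0.30, and GAL10 was at -0.26 ± 0.16 (adjusted p = 0.27). Of 17 genes of glycerol and osmotic response 5 fell (29.4%) and 0 rose, with 2 falls without mutant culture 2 and 3 with 46 and 54 min as the early window. STL1, the glycerol symporter, read 13.22, 11.05, 9.12 and 8.97 early and 8.71, 8.68, 8.65 and 8.67 late, and was under background by 54 min. DAK1, dihydroxyacetone kinase, fell by 2.10 ± 0.14 and GPP2, glycerol phosphatase, fell by 1.53 ± 0.23 (adjusted p = 0.00013 and 0.004).

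The genes switched on at Start carried the largest rises, and they rose over several steps. Of 34 G1/S genes of replication and repair 33 rose and 0 fell (median 1.97), and for 31 all late arrays lay above all early ones. The count of rises was 17 in the first step, 20 in the second, 9 in the third and 0 in the last by limma (4 at an unadjusted p under 0.05, and 1 with culture as a block). RNR1, the large subunit of ribonucleotide reductase, read 9.04, 9.44, 10.63 and 11.17 early and 13.93, 13.99, 14.18 and 14.19 late. It already climbed within the early window and nearly levelled off at 78 min, with a rise of 4.002 ± 0.17 (adjusted p = 2.5e-05). POL30, the sliding clamp of DNA polymerase, read 9.94, 9.77, 11.35 and 11.42 early and 13.83, 13.83, 13.93 and 14.02 late and rose by 3.28 ± 0.10 (adjusted p = 1.2e-05). MCD1, a cohesin subunit, read 8.57, 8.41, 8.35 and 8.93 early and 12.25, 11.96, 12.497 and 12.43 late. It was under background on all early arrays and had its rises in the second and the third step, at least 2.87-fold and then by 1.61, for at least 9.91-fold in all. POL1, of DNA polymerase alpha, rose by 3.08 ± 0.23 and CDC21, thymidylate synthase, by 2.500 ± 0.22. RFC4 alone did not pass (0.39 ± 0.13, adjusted p = 0.06).

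Of the 28 genes in the list of G1/S budding, wall and control genes 25 rose and 0 fell (median 2.18), with 13 rises in the first step, 14 in the second, 15 in the third and 1 in the last. The G1 cyclin gene CLN2 read 8.43, 8.34, 9.09 and 8.74 early and 12.23, 11.86, 12.54 and 12.38 late. The lowest late array was more than 2 above the highest early one, and the rise was 3.603 ± 0.17 (adjusted p = 3.0e-05). CLN1, its partner, rose at least 5.91-fold and PCL1, a cyclin of the kinase Pho85, at least 6.97-fold (adjusted p = 2.5e-05 and 8.5e-05). GIN4, a kinase of the septin ring, rose by 3.68 ± 0.19. Wall and surface genes were among the largest rises of the whole array. TOS6, a wall protein gene, read 9.65, 9.89, 10.15 and 10.30 early and 13.78, 13.82, 14.26 and 14.23 late and rose 16.3-fold. SRL1, a mannoprotein gene, rose by 3.82 ± 0.17, SCW10, a glucanase relative, by 3.57 ± 0.14, and CRH1, which links chitin to glucan, by 3.51 ± 0.30. SIM1, PRY2, CSI2 and SVS1 rose by at least 3.004 and at most 3.58. The adjusted p of these 8 genes lay between 2.4e-05 and 0.00041. The septin gene CDC10 (0.09 ± 0.13), GAS5 (0.22 ± 0.12) and OCH1 (0.56 ± 0.27) did not pass.

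The regulators of these genes changed by less. Of 11 SBF and MBF factors and regulators 7 rose and 0 fell (median 0.83), with 3 rises when 46 and 54 min were the early window. SWI4, the DNA-binding subunit of SBF, read 8.05, 8.51, 8.07 and 9.64 early and 10.14, 10.71, 10.45 and 10.93 late, and its value at 54 min was nearer to the late ones than the other 3. It rose by 1.99 ± 0.34 (adjusted p = 0.0059). NRM1, the corepressor of MBF, read 8.03, 8.14, 8.59 and 8.38 early and 10.31, 10.35, 11.38 and 11.43 late, under background on all early arrays and highest on the last 2. Its rise was at least 3.71-fold (adjusted p = 2.4e-05), and it passed in each of the 4 steps, the first 2 of them between arrays under background. MSA2 rose by 1.97 ± 0.11, STB1 at least 1.77-fold and WHI5, the inhibitor of SBF, by 0.83 ± 0.16. SWI6, the subunit common to both factors, rose by 0.65 ± 0.16, and MBP1, the DNA-binding subunit of MBF, did not pass (-0.34 ± 0.16). CLN3 read 10.99, 10.95, 11.55 and 11.76 early and 12.12, 11.66, 11.55 and 11.22 late, and its change of 0.33 ± 0.18 did not pass (adjusted p = 0.21), although it rose by 0.69 in the first step (adjusted p = 0.026). YOX1, a repressor of early cell cycle box genes, rose at least 9.19-fold and its relative YHP1 at least 1.57-fold.

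Genes with an early cell cycle box, among them subunits of the replicative helicase, rose in 8 of 10 members (median 0.76). In the first step 6 of the 10 rose. There were 5 rises without mutant culture 2 and 3 with 46 and 54 min as the early window. MCM7, a helicase subunit, read 9.54, 9.86, 11.42 and 11.37 early and 12.56, 12.26, 11.87 and 11.75 late. It had risen by 46 and 54 min, was highest at 78 min and was lower on the last 2 arrays, with a change of 1.57 ± 0.13 between the windows (adjusted p = 0.00037). CDC6, the loading factor, rose by 1.24 ± 0.16, MCM2 by 0.87 ± 0.15, and MCM5 did not pass (0.28 ± 0.17).

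Histone genes rose late. All 8 measured histone genes rose (median 1.08), 0 passed in the first and second step by limma (1 rise in each at an unadjusted p under 0.05, and 1 in each with culture as a block), and 6 rose in the third. HTB2, an H2B gene, read 11.12, 11.72, 11.78 and 11.98 early and 13.35, 13.52, 13.94 and 14.01 late and rose by 2.06 ± 0.15 (adjusted p = 0.00018). HHF1, an H4 gene, read 12.75, 12.62, 12.54 and 12.41 early and 13.67, 13.49, 13.99 and 13.94 late and rose by 1.19 ± 0.17 (adjusted p = 0.0034). For both the late arrays lay above all early ones and the last 2 arrays were highest. HTA1 and HTA2 of H2A rose by 0.999 and 1.15 and HHT2 of H3 by 0.996. HHO1, the linker histone, read 9.74, 9.73, 11.21 and 9.15 early, high at 46 min, and 11.51, 11.89, 12.54 and 12.71 late, and rose by 2.20 ± 0.32. Probe sets of HHF1 and HTA2 share probes with similar transcripts, and copies of histone genes are nearly identical, so their values may hold signal of each other.

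Of 15 spindle genes of S phase 11 rose and 0 fell (median 0.99), with 6 rises without mutant culture 2. TUB4, gamma-tubulin of the spindle pole, read 9.61, 9.93, 9.87 and 10.51 early and 11.64, 11.62, 11.89 and 11.93 late, without overlap, and rose by 1.79 ± 0.17 (adjusted p = 0.00056). STU2, which lengthens microtubules, rose by 1.46 ± 0.11, the kinesin genes KAR3 and CIN8 by 1.16 ± 0.18 and 1.13 ± 0.18, and NDD1, a coactivator of the CLB2 cluster, by 1.19 ± 0.20 (adjusted p between 0.0002 and 0.0063). SPC42 of the spindle pole did not pass (0.89 ± 0.28).

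Of 24 genes of the CLB2 cluster 6 rose (25%) and 1 fell (4.17%) by the late window, with a median of 0.19. In both mutant windows 5 of the 24 lay under background. The list mean at 94 and 102 min was 9.65 and 9.70 in the mutant and 9.62 and 9.71 in the wild type, whose median change was 0.28. The rises numbered 2 without mutant culture 2 and 3 with 46 and 54 min as the early window. KIN3, a protein kinase gene, read 9.40, 9.32, 9.90 and 9.48 early and 11.48, 11.54, 11.80 and 11.93 late. Late arrays were more than 1.5 above the highest early one, and the rise was 2.16 ± 0.14 (adjusted p = 0.00013), most of it in the third step (1.38, adjusted p = 0.00077). SUR7, a membrane protein gene, rose by 1.14 ± 0.17, with 12.21 and 12.04 on the last 2 arrays against 11.06 and 11.30 on the 2 before them. The bud site genes BUD3 and BUD4 rose by 0.77 ± 0.15 and at least 1.27-fold, FKH1, a forkhead factor, by 0.71 ± 0.19 and ALK1 at least 1.18-fold. Among 17 genes of the transition from mitosis to G1 3 rose, SUN4, CHS1 and ASH1, and 3 fell, PST1, RME1 and PIR1 (median -0.06). SUN4, a wall glucanase relative of cell separation, read 9.87, 10.93, 11.003 and 12.04 early and 12.29, 12.67, 12.63 and 12.75 late. The list of cell wall mannoproteins split, with 3 rises and 7 falls of 18 (4 falls without mutant culture 2). CIS3 rose by 2.35 ± 0.15 and TIR3 by 0.70 ± 0.20 beside SRL1, and CWP1 fell by 2.26 ± 0.19 beside YGP1 and SPI1.

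Mating genes changed in few members between the windows. Of 8 a-specific genes BAR1, which encodes a protease against alpha-factor, rose by 0.36 ± 0.11 (adjusted p = 0.048), and AFR1 fell by 0.77 ± 0.12. BAR1 rose by 1.15 in the first step and was 10.62 on both of the last arrays, and with 46 and 54 min as the early window its change was -0.21. Of 17 pheromone-induced genes 1 rose, FIG1, and 1 fell, PRM5, and 5 rose in the first step. FAR1, an inhibitor of G1 cyclin kinase, rose by 1.33 ± 0.23 in the first step (adjusted p = 0.0028) and did not pass between the windows (0.39 ± 0.22). Of 18 meiotic genes SPO12 rose, at least 1.17-fold, and 0 fell.

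The wild type went through much the same change, and few differences between strains passed the test. In the wild type 986 genes rose (18.1%) and 1139 fell (20.9%). Of the 554 mutant rises 486 also rose in the wild type, which is 87.7% of the mutant set and 49.3% of the wild-type set. Of the 781 mutant falls 702 also fell there, 89.9% and 61.6% of the sets. The changes of the strains correlated at 0.924 over the genes. 4 genes were called in opposite directions, MET17, MHT1 and STR3, which fell in the mutant, and YSC83, which rose in the mutant by 0.68 ± 0.13. The difference between the changes was called for 3 genes, 1 more positive (0.0184%) and 2 more negative in the mutant (0.0367%), and 216 genes (3.96%) had an unadjusted p under 0.05. All 3 calls were lost with culture as a block, with an adjusted p between 0.17 and 0.22. A fit without 1 culture leaves 1 culture in that strain, so it cannot decide them.

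KIN3 was under background on all 8 wild-type arrays, so its change there, and with it the size of the difference, could not be measured. The fitted difference of 2.26 ± 0.20 (adjusted p = 0.037) is taken against that signal and is no bound. It was also called with single arrays and culture as a random block. STR3 in the wild type was under background on all early arrays and read 8.55, 8.23, 9.38 and 9.74 late. Its fitted difference of -1.98 ± 0.20 (adjusted p = 0.037) is likewise taken against a wild-type level that was not measured in the early window. PHO84, the main phosphate transporter, was already high in the mutant at 14.35, 14.40, 14.53 and 14.46 early, with 14.37, 14.26, 14.30 and 14.19 late. In the wild type it read 11.34 and 10.87 on the first 2 arrays, 14.45 and 14.34 on the next and 14.30 to 14.43 late. Its difference of -1.77 ± 0.18 (adjusted p = 0.037) was -0.18 when 46 and 54 min were the early window, so it rested on the first 2 arrays.

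The medians of the lists in both strains are given side by side without a test. For ribosome biogenesis the median change was 0.42 (mutant) and 0.89 (wild type), and for RNA polymerases I and III 0.42 and 0.82. For general stress it was -2.85 and -3.20, for reserve carbohydrates -0.69 and -1.46, and for the proteasome -0.78 and -1.03. For the sulfur list it was -0.48 and 0.03, for G1/S replication 1.97 and 1.72, for G1/S budding 2.18 and 2.13 and for histones 1.08 and 0.85. For the CLB2 cluster it was 0.19 and 0.28. The number of members whose difference passed was 1 in the sulfur list (STR3), 1 in the phosphate list (PHO84), 1 in the CLB2 cluster (KIN3) and 0 in the other lists named here (216 of all genes at an unadjusted p under 0.05). At 38 min the mean of the ribosome biogenesis list was 12.21 in mutant culture 1 and 11.04 in wild-type culture 2, and at 54 min it was 12.89 and 12.64. At 30 min it was 11.24 in mutant culture 2 and 10.82 in wild-type culture 1.

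**Figure D5:**
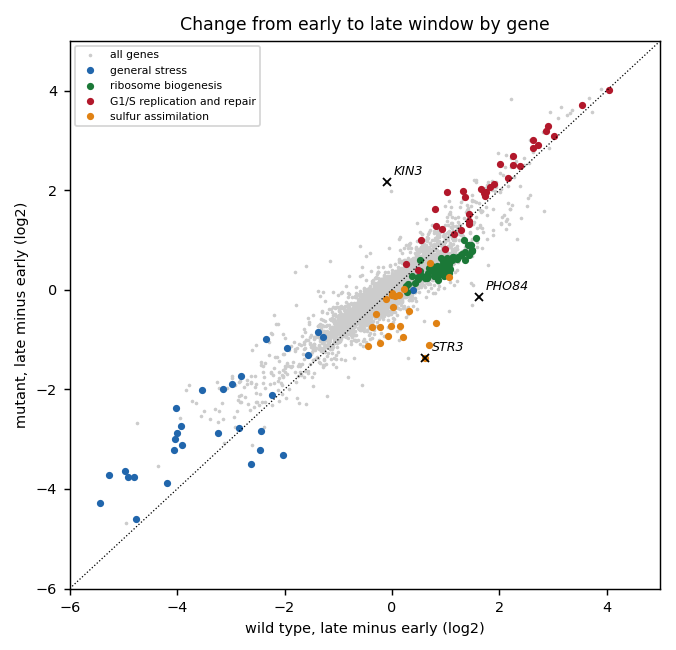
Late minus early change (log2) of each of the 5449 genes in the mutant (vertical axis) against the wild type (horizontal axis), with 4 lists coloured and equal change on the dotted line. Points follow the line (r = 0.924 over genes), and crosses mark KIN3, STR3 and PHO84, the 3 genes whose difference between strains passed the test.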

How the data were processed

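Total RNA was labelled with biotin by the One-Cycle method and hybridised to Affymetrix yeast arrays, per the labels' protocols, and affy 1.8.1 is named in the submitters' processing notes. The deposited intensities are linear, and their background correction and normalization are not given in the sources used here. Of 10928 probe sets, 7245 had an annotation entry, and 5498 of these matched 1 RefSeq gene. The 1746 entries without a match served as background probe sets, and 1 entry with several symbols was left out. The 5498 stand for 5449 genes, and the brightest probe set was used for the 47 genes with several. The analysis took log2 of the deposited intensity plus 1, averaged it per culture and window, and fitted limma 3.58.1 in R 4.3.3 to 8 means in 4 groups (4 residual and 3.08 prior degrees of freedom).

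Genes named were the 15 largest rises and falls whose windows did not overlap, the genes whose difference between strains passed, the targeted and marker genes and members of 39 lists. The members and lists were chosen with earlier results of these data known, and further genes were added after their values were seen. Of the listed genes 14 had no named probe set and were not analysed here. Both windows of a replicate number come from 1 culture, and the deviations of a culture's windows correlated over genes at 0.195 (mutant) and 0.185 (wild type). The main fit holds no culture block, and a fit with culture as a block was run as an alternative. On simulated data with the same groups, 100 genes were changed by 1 and 100 by 2 on the log2 scale. The mutant comparison recovered 76% and 93% of them, with 6 false calls. The noise was drawn independently for each mean and only these genes were changed, whereas 24.5% of genes were called in the data. Recovery and false calls in the data may therefore differ. Alternatives were other normalizations, added constants, probe set rules, windows, fits and leaving out each culture. Promoter sequences were not used here.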

Additional observations from a re-analysis of the deposited data

Results flagged for a closer look

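Among 410 groups of 4 mutant arrays (205 named genes in each window), 16 had 1 array far from the other 3 by Dixon's test, and chance alone flags about 1 in 20 groups. In the early window CHS1 was high at 30 min (11.04, others 10.09 to 10.11). At 46 min CLB2 (8.78, others 7.92 to 7.99) and IME1 (11.59, others 10.09 to 10.22) were high, and NDD1 (8.87, others 9.17 to 9.22) and SRS2 (8.22, others 8.69 to 8.77) were low. At 54 min CLN1 (8.59, others 8.24 to 8.30), GIN4 (9.50, others 8.33 to 8.44) and IMD2 (12.78, others 12.21 to 12.24) were high. In the late window PAI3 (8.82, others 8.39 to 8.44) and URA3 (12.23, others 11.82 to 11.88) were high at 78 min. At 86 min CLB2 (8.67, others 8.01 to 8.02), IME1 (11.36, others 10.12 to 10.23) and MRS4 (10.43, others 10.32) were high and ATG19 was low (8.70, highest other 9.03). GLK1 was high at 94 min (11.94, others 10.98 to 11.13) and PIR1 low at 102 min (11.06, others 11.24 to 11.27). The values given for CLB2, PAI3, CLN1, NDD1, SRS2 and ATG19 on those arrays lie under background. The arrays at 46 and 86 min, where CLB2 and IME1 were both flagged, had the widest background. The SD of the background probe sets was 0.778 and 0.707 there, against 0.349 to 0.540 on the other mutant arrays to 102 min. Whether the flags reflect these arrays or the genes was not tested.

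The fitted difference between strains in the change from the early to the late window passed for KIN3 (2.26), STR3 (-1.98) and PHO84 (-1.77), mutant minus wild type on the log2 scale, each at an adjusted p of 0.037 by limma. KIN3 was under background on all 8 wild-type arrays and STR3 on the 4 early ones, so the sizes of these 2 differences were not measured.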

How the results depend on the processing

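Counts of rises and falls in the mutant stayed within 1.5 times of 554 and 781 under both normalizations, both added constants, the probe set rule, the background filter, the late window of 78 and 86 min and the 16 single arrays. They were 347 and 455 with the mutant alone, 293 and 185 with 46 and 54 min as the early window, and 264 to 749 rises and 267 to 764 falls when 1 culture was left out. Rises made up 41.5% of the calls, 61.3% with that early window and 49.5% or 49.7% without mutant culture 1 or 2. Of 207 named changes, 85 lost the call with that early window, 71 without mutant culture 2, 20 without culture 1, 47 with the mutant alone, 50 without either wild-type culture, 34 with the 16 single arrays, 16 with the late window of 78 and 86 min and 3 with quantile normalization. The difference between strains had 1 more positive and 2 more negative gene. It had 0 and 0 with 78 and 86 min as the late window and 1 and 9 with 46 and 54 min as the early window. With single arrays it had 1 and 0, and above background 1 and 1 (216 genes at an unadjusted p under 0.05 in limma). Fits without 1 culture leave 1 culture in that strain and cannot decide this difference. The cause was not tested.

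With culture as the replicate block, which pairs a culture's windows, the counts were 579 and 781, and the difference between strains had 0 and 0 genes by limma. Steps 1 to 4 then had 905, 137, 107 and 34 rises and 1056, 155, 23 and 8 falls. Of the named changes 11 lost the call. Without 1 mutant culture the steps had 143 to 653, 15 to 124, 8 to 23 and 0 to 0 rises and 223 to 716, 27 to 143, 3 to 5 and 0 to 0 falls.

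Changes that turned sign, none of which passed under that setting, were as follows. With 46 and 54 min as the early window they were BAR1 (-0.211), CLB2 (-0.167), OPT1 (-0.809), DUG2 (-0.185), CLN3 (-0.0176), FAR1 (-0.274) and MCM5 (-0.0407). With 78 and 86 min as the late window they were CLB3 (-0.0553), LEU2 (-0.0133), OPT1 (-0.698), DUG2 (-0.123) and MSN4 (0.0592). With quantile normalization they were CLB2 (-0.0786), CLB3 (-0.0200) and MSN4 (0.00275). When 1 culture was left out, CLB2 ranged from -0.337 to 0.389, LEU2 from -0.174 to 0.184, CDC10 from -0.0230 to 0.197, CLB5 from -0.00692 to 0.184 and MSN4 from -0.201 to 0.174. The number of cultures, 2 per strain, and signal near background limit these values.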

Other observations

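The mean of the 23 sulfur genes in the mutant was 10.43 and 10.41 at 78 and 86 min and 10.74 and 10.87 at 94 and 102 min. In the fourth step 0 of the 23 rose by limma (8 at an unadjusted p under 0.05, and 1 with culture as a block). In the wild type it was 10.64 and 10.57 and then 11.01 and 10.94. MXR1, methionine sulfoxide reductase, was 10.21 and 10.10 in the wild type at 78 and 86 min and 11.91 and 11.60 at 94 and 102 min. At 46 and 54 min the wild-type mean was 10.59 and 10.53, against 11.63 and 11.59 in the mutant. The single steps of the wild type were not tested.

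The mutant mean of the stress list at 38, 46 and 54 min was below its wild-type value, given as values without a test. At 54 min its mean was 10.20 in mutant culture 1 and 11.61 in the wild type, and at 38 min it was 12.53 and 13.20. At 30 min it was 13.26 and 13.07, and at 46 min 11.73 and 12.05. By 62 and 70 min it was 9.83 and 9.41 in the mutant and 10.04 and 10.03 in the wild type.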
